A study of Homo sapiens with 12 samples.

Results

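The effect of JQ1 was examined within the triple-negative breast cancer cell line HCC1806, using the 4 HCC1806 libraries of a study of 12 libraries. The JQ1 libraries were HCC1806 cells given JQ1 at 500 nM alone and cells given JQ1 at 500 nM with GSK2801 at 10 µM. The libraries without JQ1 were cells given the vehicle DMSO and cells given GSK2801 at 10 µM. All 4 cultures were treated for 72 h in RPMI 1640 with serum, and polyadenylated RNA was sequenced. Each condition has 1 library, so 2 libraries with JQ1 were set against 2 without, in 2 pairs that share no library: JQ1 against DMSO, and JQ1 with GSK2801 against GSK2801. The other 8 libraries are the same treatments of SUM159 (JQ1 at 300 nM) and MDAMB231 (JQ1 at 100 nM), both triple-negative lines, whose DMEM/F12 medium held serum as well as hydrocortisone and insulin. They are used to test whether an effect differed in HCC1806. In that test the line cannot be told apart from its JQ1 dose and its medium. They also enter the choice of tested genes and the estimate of spread behind the standard errors and adjusted p-values given for HCC1806. Genes were counted as moved where the mean over the 4 HCC1806 libraries was at least 50 and the change was at least 2-fold in the same direction in both pairs, which 1513 of 11943 genes with that mean (12.7%) met.

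JQ1 is a small molecule that occupies the acetyl-lysine pockets of the BET proteins, BRD2 and BRD3 among them. These proteins bind acetylated histones at promoters and enhancers and help RNA polymerase II to elongate, and genes under large enhancers, MYC among them in many tumours, are known to be sensitive to their loss from chromatin. GSK2801 binds the bromodomains of BAZ2A and BAZ2B, subunits of chromatin remodelling complexes. HCC1806 comes from an acantholytic squamous breast carcinoma and is used as a basal-like model.

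Values are the deposited signal, that is estimated reads scaled by the authors so that every library has the same upper quartile. Estimated reads numbered 26600000 to 29700000 per HCC1806 library, and each detected between 16304 and 16533 genes. Their log values correlated at 0.935 to 0.990 with each other and at 0.685 to 0.745 with the libraries of the other lines. The basal and squamous markers KRT5, TP63, CDH3, EGFR and CDH1 lay between 4737 (TP63 with DMSO) and 37479 (KRT5 with GSK2801) in the HCC1806 libraries, whereas KRT14, KRT17 and DSG3 of the same list were at 255 or less and KRT6A was between 42.6 and 4493. VIM was between 46.9 and 173, and the 8 blood and endothelial markers together summed to 10.3 and 11.7 in the JQ1 libraries, against 56.6 and 22.3 in the libraries without JQ1. The 8 fibroblast and adipocyte markers summed to 456 and 306 in the JQ1 libraries, against 367 and 401 in the libraries without JQ1, nearly all of it from the collagen gene COL1A1, and DCN was listed at 0 in all 4. Of the 6 of these tested, FABP4 and PDGFRB fell, at values of at most 29.3 and 4.69, and none rose. The call of PDGFRB was lost without either pair (adjusted p up to 0.0937), in the HCC1806 libraries alone (0.0524) and with a pseudocount of 10 (0.24), and that of FABP4 without the GSK2801 term (0.0763). None of the 3 tested blood and endothelial markers passed. In every list of values below, the library without GSK2801 stands before the library with it.

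JQ1 changed the level of a large part of the transcriptome in HCC1806. Of 14232 tested genes, 7130 (50.1%) passed an adjusted p of 0.05 in limma, with 3393 higher (23.8%) and 3737 lower (26.3%) in the JQ1 libraries. At the stricter mark of at least 2-fold in both pairs, 684 genes were higher (5.73% of the 11943 with a mean of at least 50) and 829 were lower (6.94%), and 672 (4.72% of the tested genes) and 816 (5.73%) of them also passed limma. The changes were alike in the absence and in the presence of GSK2801: across genes with a mean of at least 50, the 2 pairs correlated at a Pearson r of 0.911, 85.9% of genes had the same sign in both, and the median gap between the pairs was 0.19 on the log2 scale. Only 2 genes moved at least 2-fold in opposite directions in the pairs. Effects are given as the mean log2 difference of the 2 pairs with its standard error (SE), on the log2(value + 1) scale, and adjusted p-values are those of limma over all tested genes. With 1 library per condition these SEs and p-values rest on how far the pairs depart from each other within each line, not on the spread between cultures. That departure is pooled over HCC1806, SUM159 and MDAMB231. An SE can thus be large where the 2 HCC1806 pairs are alike. Genes are not independent replicates, and in bulk RNA a smaller share of cells with a transcript and less of it per cell cannot be told apart. An exact permutation test of 2 libraries against 2 cannot go below 0.333. Leaving out any 1 HCC1806 library leaves 1 pair, and the number of genes called then falls to between 3867 and 4311. A requirement of more than 1.5-fold in the test leaves 1928.

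**Figure D1:**
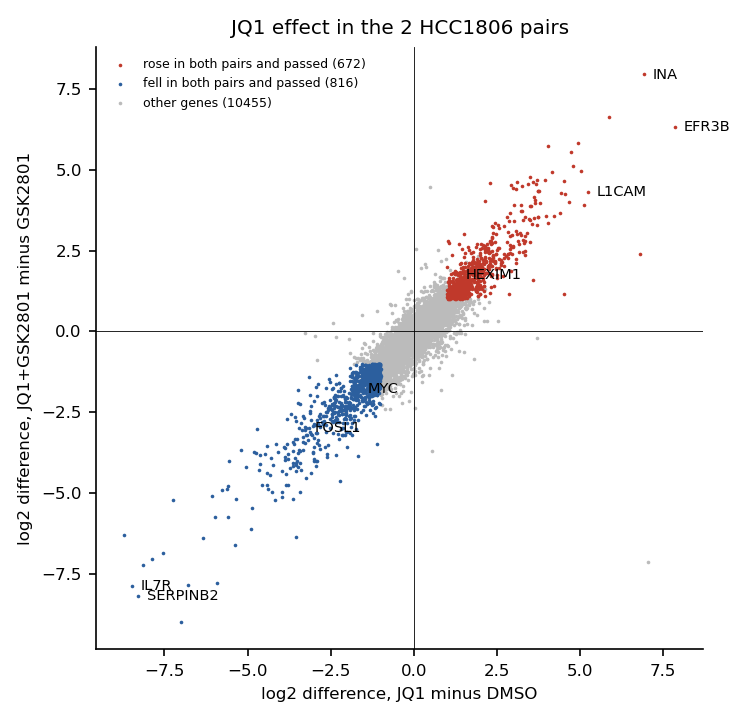
Log2 difference of each gene with a mean of at least 50 in HCC1806 between JQ1 and DMSO (horizontal axis) and between JQ1 with GSK2801 and GSK2801 (vertical axis). Red points are the 672 genes that rose at least 2-fold in both pairs and passed limma, blue points the 816 that fell, and grey points the other genes with that mean, so that the colour follows both axes. The cloud lies along the diagonal (Pearson r 0.911 across genes).

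Genes known to respond to BET inhibition checked the treatment. HEXIM1, which holds the elongation kinase P-TEFb in an inactive complex, rose in HCC1806: its value was 6270 and 8566 with JQ1, against 2510 and 2532 without JQ1 (log2 1.54 ± 0.15 SE, adjusted p = 2.16e-04). BRD2, itself a BET gene, had 16440 and 21530 with JQ1, against 7508 and 8695 without JQ1 (log2 1.22 ± 0.09 SE, adjusted p = 9.02e-05). The JQ1 libraries lay above the libraries without JQ1 for both genes, while the groups did not overlap in 75.3% of all tested genes. HEXIM1 rose by a like amount in the other lines, and its difference of 0.14 between HCC1806 and their mean did not pass (SE 0.18, adjusted p = 0.593). Of the 11 tested of 12 BET inhibition markers, 7 rose, 2 fell and the median was 0.35. Across all tested genes 23.8% rose, 26.3% fell and the median was −0.01. The histone gene HIST2H2BE (3.77 ± 0.42), the neuroserpin gene SERPINI1 (2.37 ± 0.23) and TXNIP, which encodes a thioredoxin-binding protein (1.38 ± 0.16), were among the rises, and IL7R and MYC were the falls. BRD3 (0.35 ± 0.09) rose slightly, and its call did not hold without the first pair (adjusted p up to 0.16). The P-TEFb subunit genes CDK9 (0.08 ± 0.08) and CCNT1 (0.21 ± 0.09) did not pass.

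The transcription factor genes FOSL1 and MYC fell with JQ1 in HCC1806, by more than in the other lines. FOSL1, which encodes the AP-1 subunit FRA1 (GRCh38, chromosome 11, 65892049 to 65900573, minus strand), had 590.0 and 771 with JQ1, against 5553 and 6066 without JQ1. It was thus about 8.60-fold lower with JQ1 (log2 −3.10 ± 0.14 SE, adjusted p = 1.79e-05). The groups did not overlap, as was so for 75.3% of all tested genes. In the other lines its JQ1 effect was 0.06 in SUM159 and −0.62 in MDAMB231, and the difference of HCC1806 from their mean was −2.82 ± 0.17 (adjusted p = 3.15e-04). FOSL1 stood at 837 and 992 in the SUM159 JQ1 libraries, against 952 and 804 in those without JQ1, and at 5757 and 4479 in the MDAMB231 JQ1 libraries, against 7759 and 7882 without JQ1. With JQ1, FOSL1 in HCC1806 was thus lower than in any library of the other lines. MYC, the proto-oncogene whose product drives growth and ribosome production, had 2389 and 2600 with JQ1, against 7428 and 8906 without JQ1 (log2 −1.71 ± 0.11 SE, adjusted p = 5.58e-05). Its effect was −0.12 in SUM159 and −0.01 in MDAMB231, neither of which passed, and the difference was −1.64 ± 0.14 (adjusted p = 7.67e-04).

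SERPINB2, which encodes the plasminogen activator inhibitor PAI-2 (chromosome 18, 63871692 to 63903890, plus strand), was listed at 0 in both JQ1 libraries, against 312 with DMSO and 292 with GSK2801. No fold is given against a group listed at 0. SERPINB2 was listed at 0 in all 4 SUM159 libraries, and in MDAMB231 it had 6.39 and 11.3 with JQ1, against 54.3 and 60.9 without, a fall that also passed. PDGFRA, the platelet-derived growth factor receptor alpha gene, went the other way at a very low level and had 14.3 and 9.60 with JQ1, against 2.14 and 2.34 without JQ1 (log2 1.98 ± 0.36 SE, adjusted p = 0.00303), under the mean of 50. In SUM159 PDGFRA had 412 and 165 with JQ1, against 6604 and 4788 without (−4.42), which makes the difference from the other lines 4.74 ± 0.44 (adjusted p = 9.71e-04). Without 1 pair the rise in HCC1806 missed the threshold (adjusted p up to 0.0549).

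**Figure D2:**
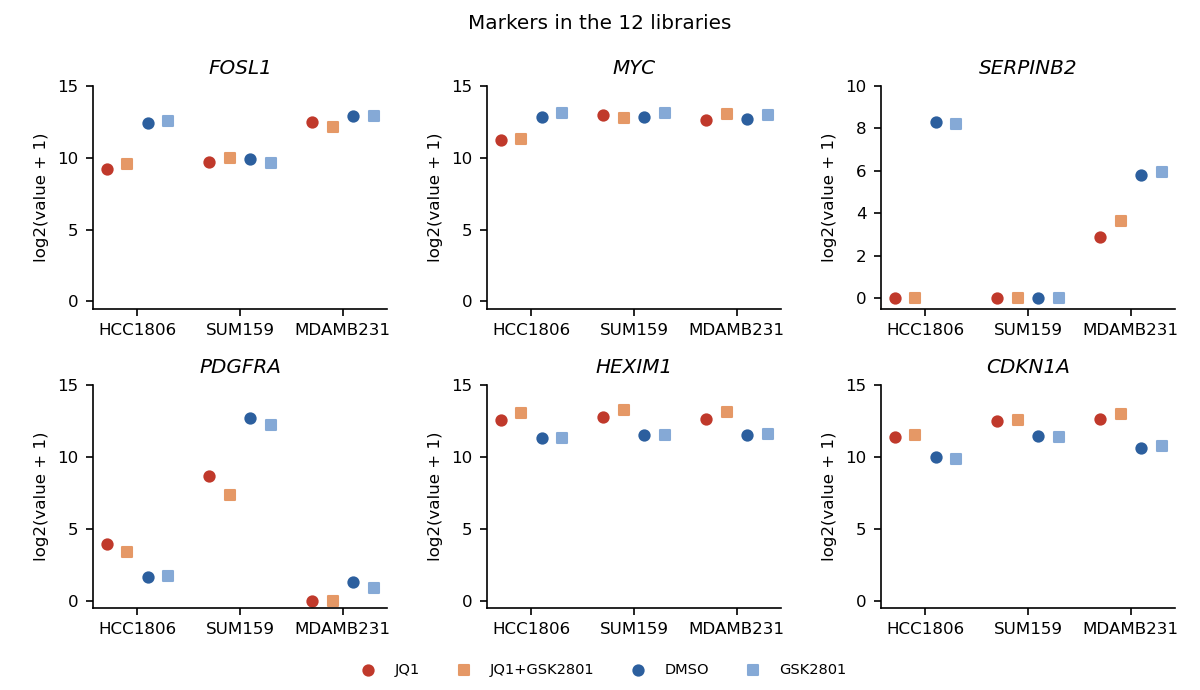
Values of FOSL1, MYC, SERPINB2, PDGFRA, HEXIM1 and CDKN1A as log2(value + 1) in the 12 libraries, 1 point per library, with JQ1 libraries in red and orange and libraries without JQ1 in dark and light blue. FOSL1 and MYC are lower with JQ1 in HCC1806 by 3.10 and 1.71, whereas HEXIM1 and CDKN1A are higher with JQ1 in all 3 lines.

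Promoter sequences of 5 genes are shown because they share a motif that AP-1 proteins such as FRA1 bind, written TGANTCA, which reads the same on both strands. The genes were chosen after their values and matches were seen. Each sequence is the RefSeq window of 300 bases on GRCh38.p14, from 250 bases before the start that RefSeq gives to 50 after it, 5′ to 3′ on the gene's strand, with matches in capitals. In each gene that start lies inside the GENCODE gene, whose outermost transcript begins further upstream, by the most in SERPINB2 and S100A2. SERPINB2, the interleukin-1 alpha gene IL1A, the calcium-binding protein gene S100A2 and the epithelial membrane protein gene EMP1 fell with JQ1 in HCC1806, and the chemokine gene CXCL8 rose. The windows are chr18:63887455-63887754 (plus strand), chr2:112784444-112784743 (minus), chr1:153565795-153566094 (minus), chr12:13196476-13196775 (plus) and chr4:73740319-73740618 (plus).
SERPINB2: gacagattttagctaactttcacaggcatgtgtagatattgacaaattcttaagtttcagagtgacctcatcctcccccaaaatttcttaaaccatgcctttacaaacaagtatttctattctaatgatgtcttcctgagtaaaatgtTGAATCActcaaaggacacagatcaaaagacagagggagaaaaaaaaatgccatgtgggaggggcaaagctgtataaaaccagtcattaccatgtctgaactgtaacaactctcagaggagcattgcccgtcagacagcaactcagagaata
IL1A: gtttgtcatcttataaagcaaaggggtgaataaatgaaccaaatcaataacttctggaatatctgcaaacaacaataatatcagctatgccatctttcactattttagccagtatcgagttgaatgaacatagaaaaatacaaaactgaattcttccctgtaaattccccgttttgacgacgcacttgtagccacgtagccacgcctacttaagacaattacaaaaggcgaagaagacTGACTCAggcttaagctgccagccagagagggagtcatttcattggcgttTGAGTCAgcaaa
S100A2: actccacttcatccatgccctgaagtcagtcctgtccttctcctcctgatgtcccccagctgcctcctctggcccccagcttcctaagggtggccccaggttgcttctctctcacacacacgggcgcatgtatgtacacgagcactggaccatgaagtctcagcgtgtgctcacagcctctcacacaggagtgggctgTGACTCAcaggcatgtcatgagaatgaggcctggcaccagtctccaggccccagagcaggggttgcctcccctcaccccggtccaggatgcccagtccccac
EMP1: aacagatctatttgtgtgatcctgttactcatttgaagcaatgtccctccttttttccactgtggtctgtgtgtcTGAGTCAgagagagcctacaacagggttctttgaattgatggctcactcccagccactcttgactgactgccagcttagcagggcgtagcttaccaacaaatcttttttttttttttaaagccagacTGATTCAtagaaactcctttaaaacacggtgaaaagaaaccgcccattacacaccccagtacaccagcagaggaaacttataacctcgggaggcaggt
CXCL8: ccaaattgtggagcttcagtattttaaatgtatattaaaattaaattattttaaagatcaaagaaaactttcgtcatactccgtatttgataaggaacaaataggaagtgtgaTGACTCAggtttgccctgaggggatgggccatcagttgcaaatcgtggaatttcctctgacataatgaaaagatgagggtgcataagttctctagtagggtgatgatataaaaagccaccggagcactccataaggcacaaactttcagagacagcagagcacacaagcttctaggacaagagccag
The first match begins at position −102 from the start in SERPINB2, −12 in IL1A, −52 in S100A2, −175 in EMP1 and −137 in CXCL8, and IL1A and EMP1 hold 2 each. Beside these windows, IL1A had 110.5 and 102 with JQ1, against 2649 and 2789 without JQ1 (−4.66 ± 0.29) and S100A2 had 724 and 512 with JQ1, against 10322 and 10984 without JQ1 (−4.13 ± 0.21). EMP1 had 6302 and 5475 with JQ1, against 51050 and 53381 without JQ1 (−3.15 ± 0.14). In each of the 3 genes both JQ1 libraries lay far below both libraries without JQ1. CXCL8 had 181 and 117 with JQ1, against 28.8 and 24.6 without JQ1 (2.41 ± 0.42), so a promoter with the motif also belonged to a gene that rose. Of the 816 genes that fell in both pairs and passed, 624 had a promoter in the table by symbol, and 67 of these (10.7%) held TGANTCA. Of the 672 that rose, 509 had one and 14 (2.75%) held it. The share was 4.81% of 11022 tested genes with a promoter and 7.76% of all 27305 promoters. The MYC-binding E-box CACGTG, counted in the same way, was in 8.81% of the promoters of genes that fell and 9.04% of those that rose, against 9.97% of the tested genes and 7.43% of all. A match is a run of letters in this window and not a site shown to be bound.

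AP-1 genes moved in both directions. Of 12 AP-1 factor genes, all of which were tested, 4 rose and 4 fell, with a median of 0.22. Among all tested genes 23.8% rose and 26.3% fell. JUND (1.56 ± 0.17), FOS (1.76 ± 0.22), JUNB (0.95 ± 0.14) and FOSL2 (0.70 ± 0.11) were higher with JQ1, and BATF3 (−2.95 ± 0.30), MAFF (−1.41 ± 0.19) and JUN (−0.82 ± 0.15) were lower along with FOSL1. JUND had 5934 and 4691 with JQ1, against 1775 and 1813 without JQ1, and JUN had 2317 and 2178 with JQ1, against 3895 and 4041 without JQ1. FOSB (−0.22 ± 0.34), ATF3 (0.50 ± 0.27) and MAFK (−0.07 ± 0.10) did not pass, and BATF was at 0 in 3 of the 4 libraries. Leaving out 1 pair ended the calls of JUN (adjusted p up to 0.102), JUNB (0.0531) and FOSL2 (0.059). In the network of MYC partners and rivals, 5 of 11 tested genes rose and 4 fell (median 0.22). MXD4, which competes with MYC for MAX, rose: it had 590.0 and 629 with JQ1, against 113 and 138 without JQ1 (2.27 ± 0.13). The other rises were MYCL (1.42 ± 0.33), MXD1 (0.49 ± 0.13), MLXIP (0.44 ± 0.09) and MGA (0.22 ± 0.07). The other falls were MXI1 (−0.82 ± 0.14), MLX (−0.72 ± 0.09) and MAX (−0.37 ± 0.10), while MXD3 (0.60 ± 0.39) and MNT (−0.04 ± 0.10) did not pass. Without 1 pair MYCL, MXD1, MLXIP, MGA, MXI1 and MAX lost their calls, with adjusted p up to 0.0815, 0.138, 0.097, 0.131, 0.0741 and 0.199.

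Genes of ribosome production, a class that MYC is known to drive, fell together in HCC1806. A link to the fall of MYC was not tested. Of 50 genes for RNA polymerase I and ribosome assembly, 42 fell and none rose, with a median of −0.55, and 5 fell at least 2-fold in both pairs. The nucleolar methyltransferase gene FBL had 2567 and 2457 with JQ1, against 4791 and 4638 without JQ1 (−0.91 ± 0.07) and PPAN had 884 and 887 with JQ1, against 1908 and 1838 without JQ1 (−1.08 ± 0.08). The small-subunit processome gene UTP20 (−1.05 ± 0.08) and the ribosome maturation gene MRTO4 (−1.08 ± 0.09) fell to a like degree. The median was −0.30 in SUM159 and −0.88 in MDAMB231, where the effect on MYC was −0.12 and −0.01. The difference between HCC1806 and the other lines passed for 3 of the 50 genes, against 25.1% of all tested genes. Of 56 structural ribosomal protein genes 16 fell, near the 26.3% of all tested genes, 1 rose, and the median was −0.16. RPL30 (−0.59 ± 0.09), RPL14 (−0.44 ± 0.08) and RPS7 (−0.42 ± 0.08) were lower and RPL28 (0.54 ± 0.11) was higher. RPL14, RPS7 and RPL28 lost their calls without 1 pair (adjusted p up to 0.0504, 0.0627 and 0.091).

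The 12 largest falls included interleukin genes and an interleukin receptor gene. IL7R, the interleukin-7 receptor alpha gene (chromosome 5, 35852695 to 35879603, plus strand), had 13.7 and 19.2 with JQ1, against 5210 and 4773 without JQ1 (log2 −8.18 ± 0.31 SE, adjusted p = 1.02e-05). It also fell in the other lines, with effects of −5.81 in SUM159 and −4.55 in MDAMB231. IL1B, the interleukin-1 beta gene, had 34.2 and 11.7 with JQ1, against 2118 and 2822 without JQ1 (−6.85 ± 0.64), and IL37, an anti-inflammatory member of the same family, had 0 and 1.07 with JQ1, against 283 and 310.5 without JQ1. The guanosine triphosphatase gene GIMAP4 had 1.14 and 2.13 with JQ1, against 502 and 411 without JQ1 (−7.46 ± 0.47), and RGS4, which turns off G protein signals, had 0 and 7.46 with JQ1, against 419.8 and 663 without JQ1. In each of these the JQ1 libraries stood near 0 and the libraries without JQ1 far above them, but their choice as the largest falls fixes that the groups stand apart. CYP2B6, a cytochrome P450 gene, was listed at 0 in both JQ1 libraries, against 186 with DMSO and 116 with GSK2801. CCAT1, a long noncoding RNA gene near MYC, had 3.42 and 0 with JQ1, against 569 and 505 without JQ1, and the hair keratin-associated gene KRTAP2-3 had 2.28 and 0 with JQ1, against 365 and 229.7 without JQ1. The microtubule-binding gene NAV3 had 6.83 and 5.33 with JQ1, against 639 and 532 without JQ1 (−6.37 ± 0.25). The teneurin gene TENM2 had 0.670 and 4.85 with JQ1, against 254 and 217 without JQ1 and the endothelial proteoglycan gene ESM1 5.70 and 1.07 with JQ1, against 279.8 and 203 without JQ1. The call of TENM2 was lost without the first pair, where its effect was −5.22. The 12 genes were chosen for their falls in these same libraries, so leaving out 1 library gives no separate support for the others. The folds of the genes listed at or near 0 with JQ1 depend on the pseudocount of 1.

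The 12 largest rises included several genes best known from neurons. INA, the neurofilament gene alpha-internexin (chromosome 10, 103277163 to 103290351, plus strand), had 121 with JQ1 and 246 with JQ1 and GSK2801, against a listed 0 in both libraries without JQ1 and in all 8 libraries of the other lines. DPYSL3, which encodes a protein of axon guidance, had 925 and 1140 with JQ1, against 14.9 and 10.6 without JQ1 (log2 6.24 ± 0.22 SE, adjusted p = 1.02e-05), and MAP1A, a microtubule-associated protein gene, had 1202 and 2394 with JQ1, against 44.9 and 50.4 without JQ1 (5.13 ± 0.29). L1CAM, a neural cell adhesion gene, had 4215 and 2855 with JQ1, against 111 and 142 without JQ1 (4.78 ± 0.28). These genes were low without JQ1, and their choice as the largest rises fixes that the groups stand apart. EFR3B, which helps to anchor a lipid kinase at the plasma membrane, had 728 and 926 with JQ1, against 2.14 and 10.6 without JQ1 (7.09 ± 0.46), and C14orf37 had 274 and 534 with JQ1, against 8.05 and 8.40 without JQ1 (5.38 ± 0.37). The cell surface proteoglycan gene SDC2 had 172 and 316 with JQ1, against 5.34 and 8.20 without JQ1 (4.94 ± 0.15), and the lipid transporter gene ABCA3 had 949.8 and 1803 with JQ1, against 40.6 and 70.3 without JQ1 (4.59 ± 0.18). SLC22A17 (4.87 ± 0.84) and the noncoding gene LINC01419 (4.51 ± 0.54) rose from low values, and SLC22A17 lost its call without the second pair (adjusted p up to 0.0904). The readthrough symbol RNASEK-C17orf49 shares its reads with the genes it spans, so its value is uncertain. It had 112 and 403 with JQ1, against 0.00354 and 76.3 without JQ1 and lost its call without the first pair (adjusted p up to 0.266). Of the 16 tested of 20 neuronal genes, 12 rose and none fell, with a median of 2.17, against 0.81 in SUM159 and 1.89 in MDAMB231. By comparison, 23.8% of all tested genes rose in HCC1806 and 26.3% fell. MAP2 had 548 and 586 with JQ1, against 24.6 and 29.3 without JQ1 (4.35 ± 0.13), MAP1B had 68.3 and 67.2 with JQ1, against 13.9 and 11.7 without JQ1 (2.32 ± 0.09), and the neuron-specific enolase gene ENO2 had 604 and 532 with JQ1, against 215 and 257 without JQ1 (1.27 ± 0.13).

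**Figure D3:**
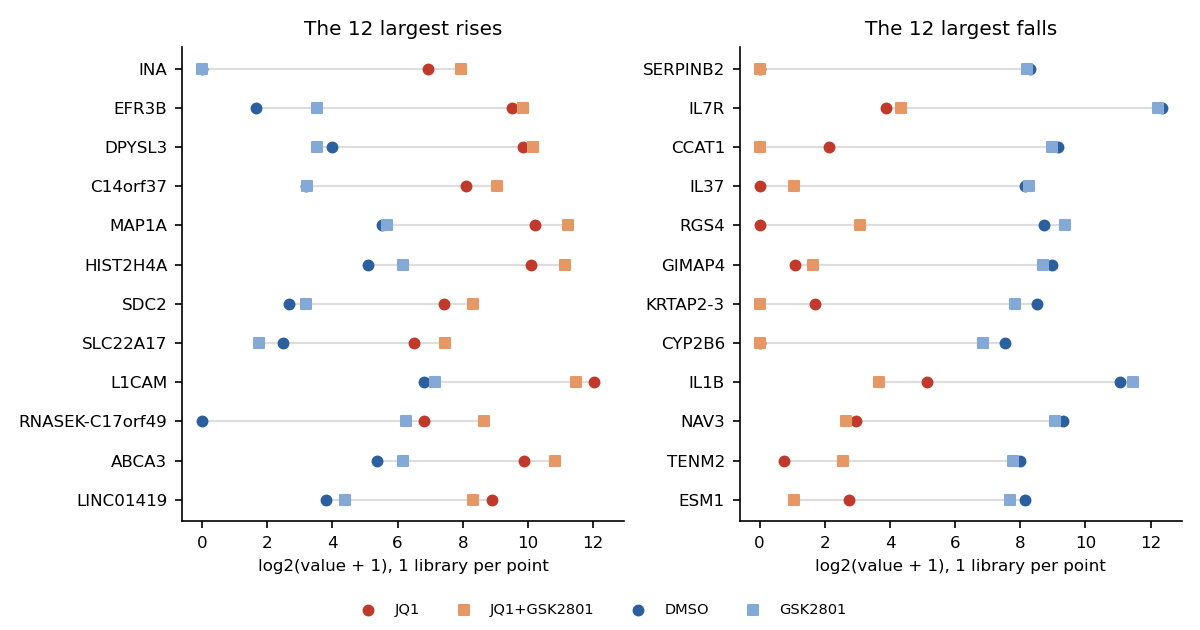
Values of the 12 largest rises (left) and 12 largest falls (right) in HCC1806 as log2(value + 1), with 1 point per library and JQ1 libraries in red and orange. Except for RNASEK-C17orf49, where GSK2801 lies close to JQ1, the JQ1 libraries stand well apart from the libraries without JQ1 in each gene, and 3 genes are listed at 0 in both libraries of a group (INA without JQ1, SERPINB2 and CYP2B6 with JQ1). The genes were chosen as the largest changes in these libraries, which fixes that the groups stand apart.

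Histone genes with polyadenylated transcripts rose as a class, 19 of 20 tested with none lower and a median of 2.71, against 1.85 in SUM159 and 0.91 in MDAMB231. In HCC1806 23.8% of all tested genes rose. H1F0, a replacement linker histone gene, had 16160 and 16664 with JQ1, against 3461 and 4129 without JQ1 (2.12 ± 0.12), and the H2A variant gene H2AFJ had 9435 and 15694 with JQ1, against 1838 and 2117 without JQ1 (2.62 ± 0.14). HIST2H4A had 1104 and 2267 with JQ1, against 32.9 and 71.5 without JQ1 (5.00 ± 0.37), but it has a near-identical copy, HIST2H4B, between which reads are divided, so its own value is uncertain. The same holds for HIST2H2AA4, listed at 0 in both libraries without JQ1, against 55.2 and 129 in the JQ1 libraries. The JQ1 effect on 12 of the 20 genes was higher in HCC1806 than in the other lines, against 14.5% of all tested genes.

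Luminal markers that passed were higher and squamous or basal markers that passed were lower with JQ1. Of 7 tested luminal breast markers 5 rose and none fell (median 1.27), and of 11 squamous or basal markers 5 fell and none rose (median −0.23). The lists are short, and 23.8% of all tested genes rose and 26.3% fell. Among the luminal markers, the simple-epithelium keratin KRT8 had 20716 and 30847 with JQ1, against 7880 and 8702 without JQ1 (1.61 ± 0.13), and its partner KRT18 had 70551 and 100826 with JQ1, against 41297 and 42786 without JQ1 (1.00 ± 0.14). The luminal transcription factor gene GATA3 had 2576 and 2267 with JQ1, against 1085 and 919.9 without JQ1 (1.27 ± 0.14), and FOXA1, which opens chromatin for the oestrogen receptor, had 1875 and 1594 with JQ1, against 719.9 and 580.0 without JQ1 (1.42 ± 0.20). ERBB2 (0.44 ± 0.10) rose less and lost its call without the first pair (adjusted p up to 0.115), while ESR1 (0.13 ± 0.42) and AGR2 (1.48 ± 1.05) did not pass. KRT6A, a keratin of stressed squamous epithelium, had 42.6 and 129 with JQ1, against 2927 and 4493 without JQ1 (log2 −5.59 ± 0.30 SE, adjusted p = 2.93e-05). KRT17 had 13.5 and 2.11 with JQ1, against 167 and 255 without JQ1, KRT14 had 1.14 and 4.61 with JQ1, against 57.1 and 91.6 without JQ1, and the desmosomal cadherin gene DSG3 had 12.5 and 8.53 with JQ1, against 108 and 148 without JQ1, all lower with JQ1 (−4.95 ± 0.60, −4.40 ± 0.63 and −3.49 ± 0.47). KRT6A, KRT14 and KRT17 have close paralogs or pseudogenes, so their reads may be divided. KRT5, the main basal keratin, had 11269 and 9941 with JQ1, against 32771 and 37479 without JQ1 (−1.73 ± 0.62, adjusted p = 0.0493). Its log2 difference was −1.54 in the first pair and −1.91 in the second, and its call held in the HCC1806 libraries alone. The call did not hold without either pair, after TMM rescaling (adjusted p = 0.0506) or after quantile normalization (0.0593). Nor did it hold without the low-value filter (0.0904), the variance trend (0.121) or the GSK2801 term (0.249). The basal identity genes TP63 (−0.09 ± 0.32), EGFR (−0.20 ± 0.11), CDH3 (0.16 ± 0.64), DSC3 (0.81 ± 0.45), CDH1 (0.79 ± 0.31) and EPCAM (−0.23 ± 0.26) did not pass. In the wider list of 35 tested epithelial and keratinocyte genes 13 fell and 4 rose (median −0.18). The junction gene JUP had 19370 and 20192 with JQ1, against 10561 and 10915 without JQ1 (0.88 ± 0.07).

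Of 35 tested genes of the extracellular matrix and of mesenchymal cells, 16 fell and 5 rose, with a median of −0.54, where 26.3% of all tested genes fell and 23.8% rose. HAS2, a hyaluronan synthase gene, had 96 and 65 with JQ1, against 2375 and 1124 without JQ1 (−4.35 ± 0.22), and the matricellular gene THBS1 had 18577 and 13930 with JQ1, against 102694 and 82423 without JQ1 (−2.52 ± 0.11). The tenascin gene TNC had 25.1 and 17.1 with JQ1, against 282 and 142 without JQ1 (−3.21 ± 0.25), and LOX, whose enzyme cross-links collagen, had 16 and 9.60 with JQ1, against 105 and 90.4 without JQ1 (−2.87 ± 0.23). Among the 7 mesenchymal markers, CDH2 (0.71 ± 0.16) and ZEB1 (1.41 ± 0.23) rose, FN1 (−0.74 ± 0.19) and ZEB2 (−2.29 ± 0.21) fell, and VIM (−0.09 ± 0.47), TWIST1 (0.50 ± 0.30) and SPARC (0.41 ± 0.26) did not pass. ZEB1 and ZEB2 were under 12 in every library, the call of ZEB1 was lost in the HCC1806 libraries alone (adjusted p = 0.0666), and CDH2 and FN1 lost their calls without 1 pair (adjusted p up to 0.124 and 0.256). The targets of the YAP and TEAD factors held 7 falls and 2 rises among 17 tested (median −0.06). ANKRD1 had 39.9 and 11.7 with JQ1, against 426 and 246 without JQ1 (−3.83 ± 0.32), the tissue factor gene F3 had 3106 and 2559 with JQ1, against 12731 and 10411 without JQ1 (−2.03 ± 0.15), and FJX1 (−1.93 ± 0.10) and CYR61 (−0.88 ± 0.10) were also lower. In the plasminogen system 7 of 12 tested genes fell and 2 rose (median −0.69). SERPINB7 had 18.2 and 10.7 with JQ1, against 388 and 252 without JQ1 (−4.39 ± 0.34), and SERPINB1, an inhibitor of neutrophil proteases, had 568 and 699 with JQ1, against 174 and 251 without JQ1 (1.59 ± 0.11).

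In the EGF family 5 of 13 tested genes fell and 2 rose (median −0.43). NRG1, the neuregulin ligand of ERBB3, had 872 and 582 with JQ1, against 9953 and 9408 without JQ1 (log2 −3.76 ± 0.16 SE, adjusted p = 1.59e-05), and TGFA, a ligand of EGFR, had 4307 and 6115 with JQ1, against 11710 and 12469 without JQ1 (−1.24 ± 0.21). NRG4 (−2.08 ± 0.39) and EGF (−1.94 ± 0.35) were lower at low values, and TGFA and NRG4 lost their calls without 1 pair (adjusted p up to 0.0909 and 0.0783). Of 28 tested receptor tyrosine kinase genes 7 rose and 7 fell (median 0.07), near the 23.8% and 26.3% of all tested genes. The fibroblast growth factor receptor gene FGFR1 had 1260 and 2006 with JQ1, against 229 and 377 without JQ1 (log2 2.43 ± 0.07 SE, adjusted p = 6.75e-06), and FGFR3 had 4690 and 4330 with JQ1, against 588 and 712 without JQ1 (2.80 ± 0.36). The ephrin receptor gene EPHA4 (1.41 ± 0.16) rose, and TYRO3 had 1205 and 1019 with JQ1, against 3997 and 4149 without JQ1 (−1.88 ± 0.14). Among 22 ERK feedback and early response genes 8 fell and 3 rose (median −0.26). EGR1, an immediate early transcription factor gene, had 2622 and 1991 with JQ1, against 344 and 541 without JQ1 (2.402 ± 0.22) and IER2 (0.63 ± 0.08) rose as well, whereas the ETS factor gene ETV4 had 340.5 and 502 with JQ1, against 1553 and 1693 without JQ1 (−1.97 ± 0.18) and MYEOV 179.9 and 176 with JQ1, against 949.5 and 726 without JQ1 (−2.22 ± 0.11).

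Of 25 tested NF-kB and inflammatory genes 8 fell and 6 rose, near the 26.3% and 23.8% of all tested genes, with a median of −0.20, against −1.17 in SUM159 and −1.16 in MDAMB231. The interleukin genes IL1A and IL1B fell, but TNFAIP2 had 12231 and 9014 with JQ1, against 3948 and 3177 without JQ1 (log2 1.57 ± 0.08 SE, adjusted p = 2.14e-05), and the inhibitor gene NFKBIA had 2773 and 2016 with JQ1, against 1426 and 1113 without JQ1 (0.91 ± 0.09). The JQ1 effect was higher in HCC1806 than in the other lines for 10 of the 25 and lower for 2, against 14.5% and 10.6% of all tested genes. The call of CXCL8 did not hold without either pair (adjusted p up to 0.0903). In the type I interferon response 20 of 36 tested genes fell and 7 rose (median −0.78). OASL, which enhances antiviral sensing, had 17.1 and 6.40 with JQ1, against 259.5 and 198 without JQ1 (−4.30 ± 0.44), and IFITM2, which blocks viral entry, had 153 and 76.3 with JQ1, against 429 and 313 without JQ1 (−1.75 ± 0.18). The factor genes IRF7 (1.79 ± 0.14) and STAT2 (1.04 ± 0.09) were among the rises. In the antigen presentation list 10 of 22 tested genes fell and 8 rose (median −0.24). The 2 ligands of PD-1 were lower: PDCD1LG2 had 1.14 and 1.07 with JQ1, against 135 and 109 without JQ1 (−5.86 ± 0.36) and CD274 had 42.1 and 41.6 with JQ1, against 330.0 and 374 without JQ1 (−3.04 ± 0.23). The class I gene HLA-B rose, with 9341 and 8943 with JQ1, against 4871 and 4839 without JQ1 (0.91 ± 0.08).

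Cell cycle genes changed little at the level of the lists, although CDKN1A, which encodes the cyclin-dependent kinase inhibitor p21, had 2649 and 2900 with JQ1, against 1003 and 927 without JQ1 (log2 1.52 ± 0.09 SE, adjusted p = 3.31e-05). Of 41 mitosis genes none rose and 1 fell, FOXM1 (−0.78 ± 0.24), whose call was lost without 1 pair (adjusted p up to 0.342). The median of the list was −0.08 in HCC1806, near the −0.21 in SUM159, against −1.61 in MDAMB231. For 13 of the 41 genes the effect was higher in HCC1806 than the mean of the other lines, against 14.5% of all tested genes. Of 44 DNA replication genes 10 fell and 4 rose (median 0.00, against 0.01 in SUM159 and −1.28 in MDAMB231). For this list and those below, the shares of all tested genes that fell and rose in HCC1806 were 26.3% and 23.8%. E2F2 (−2.04 ± 0.28) and POLE2 (−1.47 ± 0.24) were lower, and POLE (0.42 ± 0.08) and GINS4 (0.64 ± 0.14) higher. E2F2, POLE2 and GINS4 lost their calls without 1 pair (adjusted p up to 0.0507, 0.0776 and 0.114). Of 16 tested G1 regulators 5 rose and 3 fell (median 0.06), with CDKN2D (1.08 ± 0.13) and RB1 (0.41 ± 0.07) higher and CDK4 (−0.42 ± 0.08) lower. RB1 and CDK4 missed the threshold without the second pair (adjusted p up to 0.0504 and 0.0504). Among 22 p53 target genes 9 rose and 3 fell (median 0.36), with TP53INP1 at 743 and 732 with JQ1, against 72.6 and 94.9 without JQ1 (3.14 ± 0.17) and RRM2B (1.47 ± 0.08) higher and the nuclease gene AEN (−1.66 ± 0.12) lower. The apoptosis list held 10 falls and 7 rises among 27 tested (median −0.18). CFLAR, which blocks caspase-8 at death receptors, had 461 and 395 with JQ1, against 1346 and 1430 without JQ1 (log2 −1.70 ± 0.11 SE, adjusted p = 4.21e-05), and the TRAIL receptor gene TNFRSF10A had 416 and 589.7 with JQ1, against 1403 and 1531 without JQ1 (−1.56 ± 0.13). The anti-apoptotic gene BCL2 was lower (−0.98 ± 0.14), and the pro-apoptotic gene BCL2L11 (1.34 ± 0.12) and the caspase-binding gene BIRC3 (0.94 ± 0.12) were higher.

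Metabolic and stress lists were mixed apart from autophagy and lysosome genes, of which 19 of 34 rose and 5 fell (median 0.37). Over all tested genes 23.8% rose and 26.3% fell, and the cholesterol synthesis counts below lie near these shares. MAP1LC3B, whose product coats autophagosomes, had 3015 and 3819 with JQ1, against 1515 and 1514 without JQ1 (1.16 ± 0.12), and ATG2A (1.06 ± 0.09) and the saposin gene PSAP (0.80 ± 0.09) rose, while the cathepsin gene CTSZ (−0.79 ± 0.08) fell. Of 28 cholesterol synthesis genes 7 fell and 6 rose (median −0.17), including CYP51A1 (−1.11 ± 0.09) and EBP (−0.996 ± 0.09) on the lower side and TM7SF2 (2.77 ± 0.27) and ACLY (0.54 ± 0.08) on the higher. The hypoxia and glycolysis list had 10 rises and 8 falls among 27 tested (median 0.18), and the hexokinase gene HK2 had 298 and 381 with JQ1, against 1378 and 1526 without JQ1 (−2.10 ± 0.10), with PFKP (−0.65 ± 0.07) and CA12 (−1.33 ± 0.16) also lower. Of 29 ATF4 and unfolded protein genes 11 fell and 3 rose (median −0.17). TRIB3 had 466 and 414 with JQ1, against 2079 and 1999 without JQ1 (−2.21 ± 0.24), the cystine transporter gene SLC7A11 had 2649 and 2226 with JQ1, against 9930 and 11409 without JQ1 (−2.13 ± 0.27), and SDF2L1 (−1.02 ± 0.12) fell too. NUPR1 was listed at 0 in both JQ1 libraries, against 20.3 and 23.4 in those without JQ1. SLC7A11 missed the threshold without the second pair (adjusted p up to 0.0515). Of 24 tested NRF2 and aryl hydrocarbon receptor targets 7 rose and 7 fell (median −0.01): the transporter gene ABCC2 (−3.38 ± 0.24) and the reductase gene AKR1C2 (−2.62 ± 0.20), which has close paralogs, were lower, and TXNRD1 (1.12 ± 0.12) and PGD (0.65 ± 0.08) higher. Among 34 tested genes of other bromodomain and acetylation proteins 13 rose and 6 fell (median 0.11), with the deacetylase genes HDAC9 (−3.25 ± 0.30) and HDAC7 (−1.03 ± 0.09) and the acetyltransferase gene KAT2A (−1.30 ± 0.13) lower and PBRM1 (0.60 ± 0.08) higher.

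**Figure D4:**
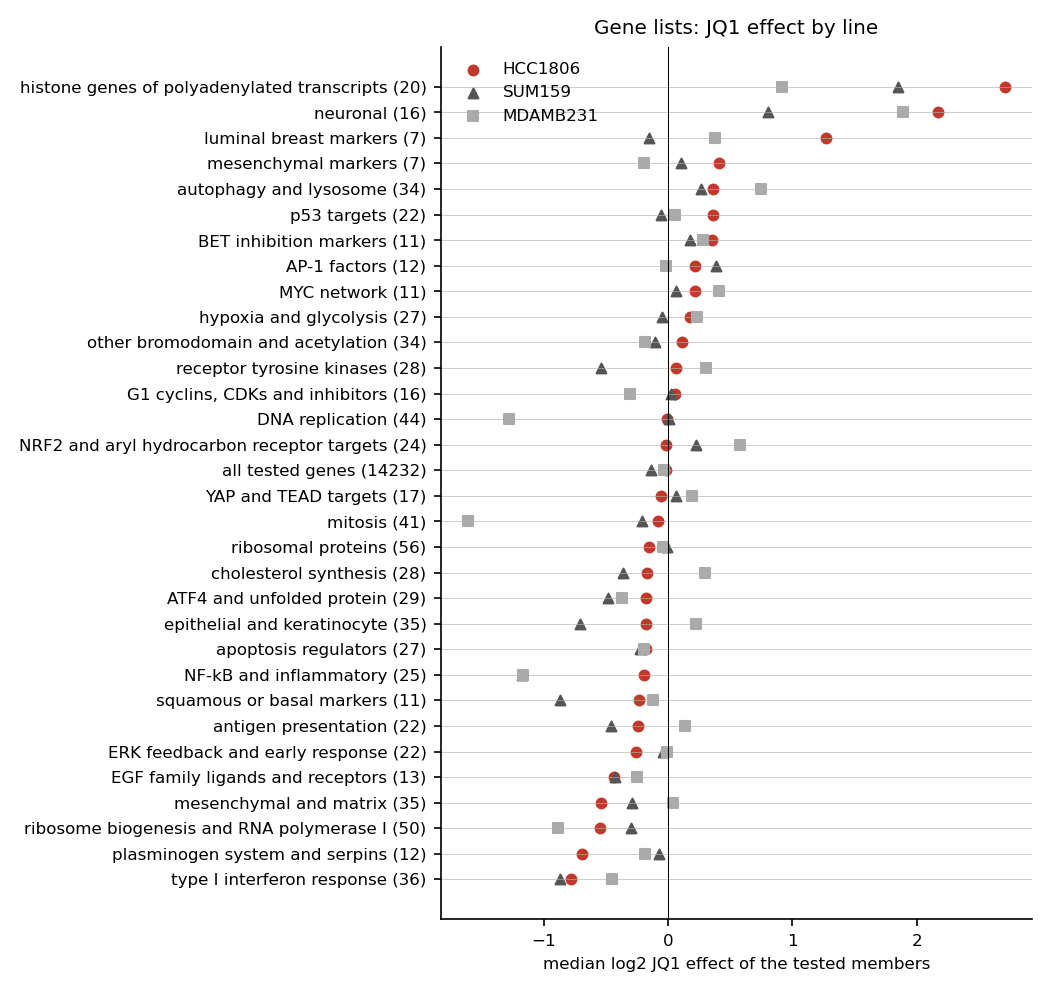
Median log2 JQ1 effect of the tested members of each gene list (number tested in parentheses) in HCC1806 (circles), SUM159 (triangles) and MDAMB231 (squares), sorted by HCC1806, with all tested genes as a row. Histone genes (2.71), neuronal genes (2.17) and luminal markers (1.27) stand highest in HCC1806, and interferon genes (−0.78) and the plasminogen system (−0.69) lowest.

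The comparison with SUM159 and MDAMB231 asked which of these changes differed in HCC1806. The JQ1 effect in HCC1806 minus the mean effect in the other lines passed for 3570 of 14232 genes (25.1%), with 2057 differences positive (14.5%) and 1513 negative (10.6%). After TMM rescaling the split was 1618 positive and 1871 negative, so the sign balance depends on the scaling. Of the 672 genes that rose in both pairs and passed, 377 (56.1%) rose more than in the other lines, and of the 816 that fell, 425 (52.1%) fell more. The members were chosen on the HCC1806 effect, which is part of the difference, so these shares are a description. In the same gene sets the median effect was 1.62 in HCC1806, 0.64 in SUM159 and 0.95 in MDAMB231 for the rises, and −1.65, −0.94 and −0.78 for the falls. Without any 1 HCC1806 library the number of differences called is between 371 and 648. Among the genes plotted by line, the differences of F3, GATA3 and CXCL8 did not pass without at least 1 HCC1806 library.

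Some of the genes that moved in HCC1806 are hardly expressed in the other lines. They were counted whether or not their difference passed, and the share over all tested genes was not counted. A mean under 10 in both other lines was found for 37 of the 672 rises and 87 of the 816 falls, among them IL37, GIMAP4, CYP2B6 and the adhesion gene CEACAM6 on the lower side and INA, UPK2 and LINC01419 on the higher. CEACAM6 had 3.42 and 3.20 with JQ1, against 129.6 and 290.0 without JQ1 in HCC1806, and no library of the other lines exceeded 0.875. The urothelial plaque gene UPK2 had 562 and 497 with JQ1, against 63 and 71.5 without JQ1 (2.96 ± 0.46). Other genes with large positive differences were expressed in at least 1 other line. The protocadherin gene PCDH10 had 555 and 714 with JQ1, against 43.8 and 44.5 without JQ1 (3.80 ± 0.47). The kinesin gene KIF5C had 76.3 and 142 with JQ1, against 5.34 and 7.03 without JQ1 (3.88 ± 0.53). PCDH10 lay between 16.4 and 30.9 in MDAMB231, and KIF5C between 16.4 and 145 in SUM159. ZACN, which overlaps another gene, had 156 and 200 with JQ1, against 5.83 and 89 without JQ1, so that the GSK2801 library was much closer to the JQ1 libraries than DMSO was, and its rise lost the call without the first pair (adjusted p up to 0.132). Restricting to genes with a mean of at least 50 in each line left 483 rises and 534 falls, of which 279 (57.8%) and 282 (52.8%) differed in the same direction.

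Among genes expressed in all 3 lines, S100A2, EMP1 and the thrombomodulin gene THBD fell in HCC1806 more than in the other lines. THBD had 113 and 69.3 with JQ1, against 2168 and 2197 without JQ1 (−4.61 ± 0.18), with effects of −1.98 in SUM159 and −0.51 in MDAMB231 (difference −3.36 ± 0.22, adjusted p = 3.37e-04). EMP1 had effects of −1.05 in SUM159 and 0.38 in MDAMB231 (difference −2.82 ± 0.17, adjusted p = 3.15e-04), and S100A2 had effects of −0.60 in SUM159 and −1.03 in MDAMB231 (difference −3.31 ± 0.26, adjusted p = 6.16e-04). These 3 genes were named after their values were seen, as were those that follow. A smaller number of genes moved in opposite directions: of the genes with a mean of at least 50 in each line whose difference passed, 6 fell in HCC1806 and rose past the threshold in both other lines, and 4 did the reverse. Among the first were AQP3, a water and glycerol channel gene, the transcription factor gene KLF2, the membrane repair gene DYSF, the trypsinogen gene PRSS3 and the noncoding gene ABALON. AQP3 had 1309 and 2084 with JQ1, against 4688 and 4955 without JQ1 in HCC1806 (−1.54 ± 0.19), against effects of 2.27 in SUM159 and 3.34 in MDAMB231. KLF2 had 202 and 165 with JQ1, against 554 and 372 without JQ1 (−1.31 ± 0.19), against 2.65 in SUM159 and 0.68 in MDAMB231. DYSF (−1.33 ± 0.19 in HCC1806), PRSS3 (−1.40 ± 0.21) and ABALON (−1.23 ± 0.15) also fell, the call of DYSF missing the threshold without the first pair (adjusted p up to 0.0523) and that of PRSS3 in the HCC1806 libraries alone (adjusted p = 0.0508). The fall of AQP3 in HCC1806 did not pass when the GSK2801 term was dropped from the model (adjusted p = 0.184). The reverse pattern was seen in TNFAIP2 and 3 more genes. The zinc finger gene ZNF804A had 464 and 303 with JQ1, against 102 and 85.5 without JQ1 (1.99 ± 0.15), against effects of −1.32 in SUM159 and −0.90 in MDAMB231. The matrix metalloproteinase gene MMP16 had 843 and 1273 with JQ1, against 267 and 294 without JQ1 (1.88 ± 0.15), against −0.56 in SUM159 and −0.78 in MDAMB231. The ferredoxin reductase gene FDXR had 1270 and 1376 with JQ1, against 570.4 and 661 without JQ1 (1.10 ± 0.12), against −0.56 in SUM159 and −0.41 in MDAMB231.

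**Figure D5:**
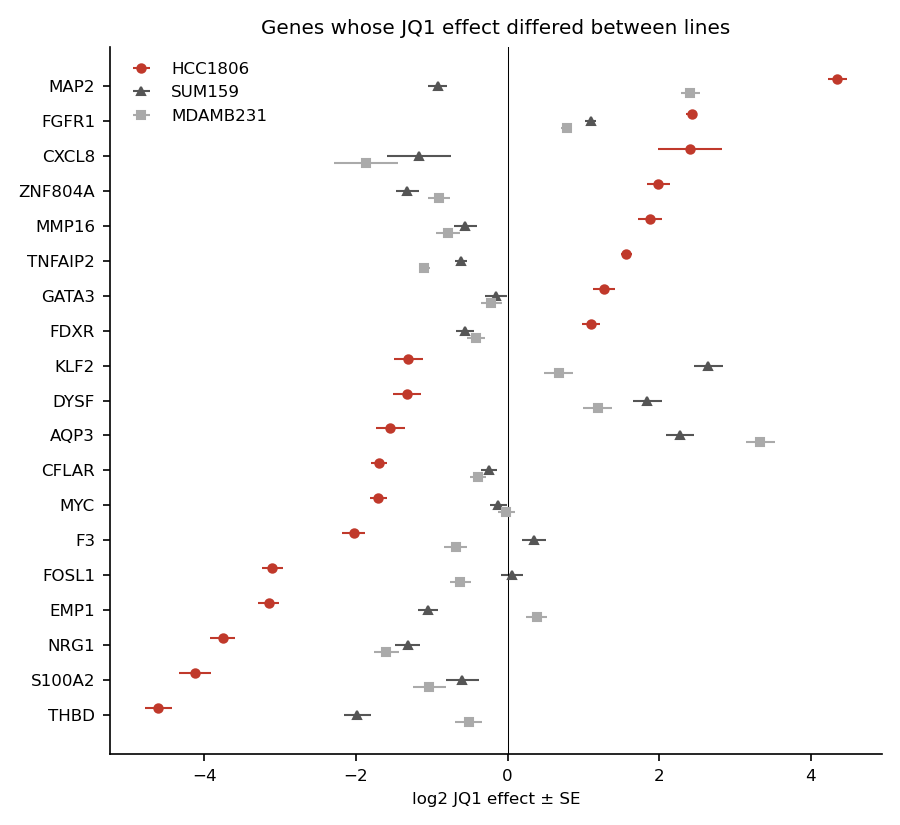
Log2 JQ1 effect with its SE in HCC1806 (circles), SUM159 (triangles) and MDAMB231 (squares) for 19 genes described in the text whose difference passed. FOSL1, MYC and CFLAR fell in HCC1806 more than in either other line, and AQP3, KLF2 and DYSF lie on opposite sides of 0.

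The 2 pairs departed from each other by more than 1 on the log2 scale in 276 of the 11943 genes with a mean of at least 50. The largest departures were named after their values were seen, and their cause was not tested. Among them, SMARCA2 had 129.5 with JQ1 and 0 with JQ1 and GSK2801, against 0 with DMSO and 140 with GSK2801. BLOC1S5-TXNDC5, a readthrough symbol whose reads can be divided differently between libraries, had 597 and 556 in the JQ1 libraries, against 423 and 24.3 in those without JQ1. VIM had 173 and 46.9 with JQ1, against 77 and 120.4 without JQ1, higher with JQ1 in the first pair and lower in the second. Among the 816 genes that fell, 514 fell more in the pair with GSK2801 (median −1.75, against −1.56 in the pair without it), and among the 672 that rose, 326 rose more in that pair (1.60 against 1.64).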

How the data were processed

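RNA-seq of 12 libraries, 1 per line and treatment, was analysed, and the JQ1 effect was described for the 4 HCC1806 libraries. The deposited signal is estimated reads per gene; from the values, the authors scaled each library to the same upper quartile. Reads were processed with STAR 2.4 and Salmon 0.60 on hg38, per the submitters' processing notes; the labels name 2 different library kits, and strand handling is not given in the sources used here. Between 67.2% and 69.3% of the values of a library were whole multiples of 1 step (tolerance 0.02), so no count test was used. Of 28539 entries, 27 symbols turned into dates were left out. No depth beyond the sum of estimated reads is known.

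Values were analysed as log2(value + 1) in limma 3.58.1 (R 4.3.3) for 14232 genes with a mean of at least 10 over the 12 libraries. Each line had its own intercept, JQ1 effect and GSK2801 effect, leaving 3 residual degrees of freedom, with a variance trend and Benjamini-Hochberg adjustment at 0.05. The GSK2801 effect is a planned treatment term that pairs each JQ1 library with the library of the same GSK2801 label; it does not mark a shared culture, and the deviations of libraries with the same label correlated at 0.0764. The difference between lines is the HCC1806 effect minus the mean effect in SUM159 and MDAMB231. The procedure was tested on simulated data.

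Genes named were the 12 largest rises and falls, the 8 largest differences each way, up to 4 members of smallest p per list, the markers and the members of short lists. A few genes that this rule selects are not reported here. The members and lists were chosen with earlier results of these data known. Gene coordinates are from GENCODE v29 on GRCh38, and promoter sequences are from RefSeq on GRCh38.p14. The alternatives were another pseudocount, other low-value filters, TMM and quantile scaling, no GSK2801 term, no variance trend, a 1.5-fold threshold, HCC1806 libraries only, and leaving out libraries or a line.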

Additional observations from a re-analysis of the deposited data

Results flagged for a closer look

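The JQ1 effect differed between HCC1806 and the other lines for 120 of the genes named, by the limma test of the difference itself. The values in parentheses are the log2 JQ1 effect in HCC1806 minus the mean effect in SUM159 and MDAMB231. For genes listed at or near 0 in a group or in the other lines, among them SERPINB2, CYP2B6, INA and IL37, the size depends on the pseudocount. JQ1 dose and medium also differed between the lines and cannot be told apart from the line.

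Under every alternative that covered the gene, including without any 1 HCC1806 library, 38 of these differences passed. The filter of a mean of at least 50 in HCC1806 covered 111 of the genes, and PDGFRA and MAP1B are among those it left out. The effect was lower in HCC1806 for IL37 (−7.49), GIMAP4 (−7.18), SERPINB2 (−6.93), CEACAM6 (−5.27), KRT6A (−5.18), PDCD1LG2 (−4.94), ESM1 (−4.50), AQP3 (−4.35), KRT17 (−4.25), SERPINB7 (−3.94), THBD (−3.36), S100A2 (−3.31) and KLF2 (−2.97). Smaller differences of that sign were those of DYSF (−2.85), FOSL1 (−2.82), EMP1 (−2.82), AKR1C2 (−2.80), ABALON (−2.67), NRG1 (−2.30), PRSS3 (−2.29), MYEOV (−1.98), MYC (−1.64), CFLAR (−1.38), HK2 (−1.27) and CTSZ (−1.07). The effect was higher in HCC1806 for INA (7.44), PDGFRA (4.74), MAP2 (3.61), SDC2 (3.19), ZNF804A (3.10), MMP16 (2.55) and TNFAIP2 (2.42). Further positive differences were those of H2AFJ (2.20), BIRC3 (2.07), EGR1 (1.75), MAP1B (1.66), FDXR (1.59) and FGFR1 (1.49). The differences of ZACN (5.40), ZEB1 (1.65) and STAT2 (0.97) passed without any 1 HCC1806 library but not under at least 1 other alternative.

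Without at least 1 HCC1806 library the other 79 differences did not pass. Among these the effect was lower in HCC1806 for CYP2B6 (−7.50), TENM2 (−5.78), RGS4 (−5.54), KRT14 (−5.19), KRTAP2-3 (−4.70), IL1B (−4.50), CCAT1 (−3.997), ANKRD1 (−3.95), DSG3 (−3.75), IL7R (−3.00), FABP4 (−2.87), NAV3 (−2.85) and IL1A (−2.65). In the middle of that range were ABCC2 (−2.31), OASL (−2.27), CD274 (−1.98), F3 (−1.86), TNC (−1.73), ZEB2 (−1.72), HDAC9 (−1.55), TXNIP (−1.42), TGFA (−1.33), LOX (−1.30), THBS1 (−1.30), MXI1 (−1.29) and FN1 (−1.27). The smallest negative differences were JUN (−1.21), CYR61 (−1.14), FJX1 (−1.002), CA12 (−0.90), TNFRSF10A (−0.86), MAFF (−0.86), TYRO3 (−0.75), CYP51A1 (−0.71), HDAC7 (−0.68), KAT2A (−0.67), JUP (−0.64), EBP (−0.48) and PFKP (−0.37). Among these it was higher in HCC1806 for LINC01419 (4.49), PCDH10 (4.44), HIST2H2AA4 (4.40), KIF5C (4.03), CXCL8 (3.93), UPK2 (3.85), SLC22A17 (3.77), DCN (2.79), CDH1 (2.76), MAP1A (2.63), ABCA3 (2.23), DPYSL3 (2.17), EFR3B (2.10) and C14orf37 (2.04). Positive differences of middle size were HIST2H4A (2.03), L1CAM (1.91), EPCAM (1.47), GATA3 (1.46), EPHA4 (1.40), CDH2 (1.28), COL1A1 (1.26), FOXA1 (1.19), TP53INP1 (1.14), H1F0 (1.07), FOS (1.01), KRT8 (0.93), HLA-B (0.88) and GINS4 (0.85). The smallest positive differences were SERPINB1 (0.84), NFKBIA (0.83), RRM2B (0.72), KRT18 (0.71), MXD4 (0.69), ENO2 (0.63), JUNB (0.59), FOSL2 (0.54), IER2 (0.51), ACLY (0.46), RB1 (0.44) and ERBB2 (0.41). DCN was listed at 0 in all 4 HCC1806 libraries, so its difference is that of the other lines.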

How the results depend on the processing

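The pairing by GSK2801 label changed the counts little: with no replicate block, 6642 JQ1 effects and 2976 differences between lines passed, against 7130 and 3570. Other pseudocounts, filters, scalings, HCC1806 libraries alone and no variance trend gave 5226 to 7512 JQ1 effects. A threshold of 1.5-fold in the test left 1928 effects and 562 differences, and no variance trend left 2156 differences. Leaving out 1 HCC1806 library left 3867 to 4311 effects and 371 to 648 differences; 1 pair then remains, assumed to vary like those of the other lines. Genes moved in both pairs numbered 2930 without the low-value filter, 3309 at 1.5-fold and 409 at 4-fold. Of 168 named genes that passed, 116 passed under every alternative that covered them (the filter of a mean of at least 50 covered 155), and 34 did not without at least 1 HCC1806 library. Signs changed in genes that had not passed: with 1 library left out the JQ1 effect spanned −0.15 to 0.0201 for MAFK, −0.069 to 1.27 for MXD3, −0.12 to 0.0496 for MNT (0.0386 after quantile normalization), −0.25 to 0.066 for TP63, −0.13 to 0.39 for ESR1, −1.34 to 1.16 for VIM and −0.25 to 0.35 for COL1A1. Without SUM159 the differences of MXD4 and TP53INP1 were −0.38 and −0.00888, and without MDAMB231 those of JUP and LOX were 0.27 and 0.15. The causes were not tested. Low values limit the folds of genes near 0.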
